A study of Homo sapiens with 16 samples.

Results

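A set of 10 genes of the death receptor and caspase-8 pathway were examined in maps of open chromatin from drug-treated U87 cells: the receptor genes TNFRSF10A, TNFRSF10B, TNFRSF10C, TNFRSF10D, FAS and TNFRSF1A, the adaptor gene FADD, the caspase genes CASP8 and CASP10, and the inhibitor gene CFLAR. These are 10 of 19970 protein-coding genes in the gene table used. Their regions were chosen on the peak calls themselves, as every stretch with a peak in at least 1 of 4 lists that overlapped a gene's span extended by 10 kb on each side. This gave 73 of 183659 regions, and 6 of the 73 lie in the windows of more than 1 of the genes. The genes were picked with their peaks in these lists already known, so their presence, width and rank are described with no test.

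U87 is an established human glioblastoma line, and open chromatin was mapped by NicE-seq, in which the nicking enzyme Nt.CviPII and a DNA polymerase put biotin into accessible DNA of fixed nuclei before capture and sequencing. The 16 libraries form 4 groups of 4: the combination of AsiDNA and belinostat (Asi_Bel), belinostat alone (Control_Bel), AsiDNA alone (Asi_DMSO), and vehicle (Control_DMSO). Belinostat, an inhibitor of histone deacetylases, was given at 1 µM for 24 h, and AsiDNA is a short DNA duplex that acts as a decoy for repair enzymes. The 4 libraries of a group share 1 peak list. Values therefore have no replicate error, and no p-value is given. The labels give no dose or time for AsiDNA, and their protocols name MTU87 and LTAU87 cells where the sample fields say U87. How the AsiDNA groups were exposed, and whether all groups come from the same cells, is therefore not settled here.

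The combination list held 134865 peaks, the belinostat list 138937, the AsiDNA list 138273 and the vehicle list 130318, and read depth is unknown. VIM, CD44, FN1, SOX2 and EGFR, which mark mesenchymal and glial tumour cells, had a peak at a gene start or end in every list. CDKN2A and CDKN2B, which are known to be deleted in U87, had no peak in any list. Of the markers of other cell types, PTPRC, HBB and ALB had no peak at a start or end. The glial marker GFAP had none there either, while another glial marker and the leukocyte gene CD3E had one in every list. Within 10 kb of its span, GFAP still had 7 regions, with 7 in every list, and PTPRC had 9, with 5 in every list.

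Death receptors are cell surface proteins whose inner death domain gathers FADD when a ligand such as TRAIL or Fas ligand binds outside. FADD in turn gathers procaspase-8 and procaspase-10, which activate one another and then cut downstream proteins such as BID, while c-FLIP, the product of CFLAR, takes their place in the complex and holds the signal back. Glioma cells often resist this route to apoptosis, and low receptor or caspase-8 levels and high c-FLIP are among the known reasons.

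A promoter table credited to RefSeq (GRCh38.p14) gave 12 starts for 5 of the genes, 3 for FAS, 1 for TNFRSF1A, 1 for FADD, 3 for CASP8 and 4 for CFLAR. The 250 bases before the start are shown for 7 of them, picked after their peaks were seen because they differ in coverage. CG pairs are in capitals, because starts rich in them were more often covered: a peak of every list lay over 8.09% of the starts with 0 to 4 CG pairs in these bases, over 20.5% with 5 to 9, over 58.2% with 10 to 19 and over 71.9% with 20 or more, among 34961 starts. The 3 CASP8 starts are all poor in CG pairs, and lie after chr2:201233213-201233462, chr2:201257785-201258034 and chr2:201260286-201260535 on the plus strand.
CASP8 start 1: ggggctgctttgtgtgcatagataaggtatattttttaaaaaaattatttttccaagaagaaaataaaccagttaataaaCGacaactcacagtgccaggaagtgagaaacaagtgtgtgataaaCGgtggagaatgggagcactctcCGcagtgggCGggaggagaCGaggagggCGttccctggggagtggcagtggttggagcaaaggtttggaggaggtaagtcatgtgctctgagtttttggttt
CASP8 start 2: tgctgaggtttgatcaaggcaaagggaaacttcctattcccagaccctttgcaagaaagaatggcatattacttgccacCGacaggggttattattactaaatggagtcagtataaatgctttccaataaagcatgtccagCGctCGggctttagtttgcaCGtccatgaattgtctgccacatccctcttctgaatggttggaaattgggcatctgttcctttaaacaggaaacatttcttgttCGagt
CASP8 start 3: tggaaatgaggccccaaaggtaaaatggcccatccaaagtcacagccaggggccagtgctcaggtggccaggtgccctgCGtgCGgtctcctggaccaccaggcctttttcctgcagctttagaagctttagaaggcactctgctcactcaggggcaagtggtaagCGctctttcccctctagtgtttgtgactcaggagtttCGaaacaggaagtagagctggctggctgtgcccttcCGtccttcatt

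With 6, 5 and 5 CG pairs these windows lie below the median of 11 over all windows, yet CASP8 start 2 had a broad, high-ranked peak in every list. A search of both strands found TATAAA in the window of CASP8 start 2 and in 10.7% of all windows. CCAAT was also found there, and in 32.0% of all windows. For CFLAR, start 1 and start 4 are shown because both are rich in CG pairs but only start 1 carried a peak. They lie after chr2:201118466-201118715 and chr2:201140025-201140274 on the plus strand.
CFLAR start 1: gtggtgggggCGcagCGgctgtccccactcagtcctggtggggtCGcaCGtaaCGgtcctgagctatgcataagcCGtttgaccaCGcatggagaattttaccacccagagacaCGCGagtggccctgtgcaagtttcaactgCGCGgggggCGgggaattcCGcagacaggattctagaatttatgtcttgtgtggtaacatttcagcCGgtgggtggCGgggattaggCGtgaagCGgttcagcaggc
CFLAR start 4: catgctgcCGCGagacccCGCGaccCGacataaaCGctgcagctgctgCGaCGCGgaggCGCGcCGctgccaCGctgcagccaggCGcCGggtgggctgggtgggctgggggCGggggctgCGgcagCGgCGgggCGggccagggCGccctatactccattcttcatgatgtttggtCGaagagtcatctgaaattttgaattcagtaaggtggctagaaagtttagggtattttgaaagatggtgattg

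Start 1 of CFLAR has 17 CG pairs and start 4 has 22. GGGCGG, the GC box, was found in both windows and in 42.7% of all windows. FADD and TNFRSF1A, each with 1 start in the table, stand at opposite ends of the CG range among the covered starts, with 32 and 4 CG pairs. Their windows are chr11:70203046-70203295 on the plus strand and chr12:6342077-6342326 on the minus strand.
FADD start: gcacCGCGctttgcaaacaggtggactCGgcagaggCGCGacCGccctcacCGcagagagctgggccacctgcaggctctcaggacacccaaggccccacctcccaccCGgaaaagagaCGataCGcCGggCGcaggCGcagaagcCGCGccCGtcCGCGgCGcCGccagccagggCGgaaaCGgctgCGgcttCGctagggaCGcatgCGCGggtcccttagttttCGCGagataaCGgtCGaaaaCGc
TNFRSF1A start: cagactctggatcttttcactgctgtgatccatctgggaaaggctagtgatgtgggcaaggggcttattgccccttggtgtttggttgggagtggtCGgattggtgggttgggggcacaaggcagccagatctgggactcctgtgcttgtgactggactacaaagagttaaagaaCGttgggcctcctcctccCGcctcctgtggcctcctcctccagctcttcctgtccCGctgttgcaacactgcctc

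The nicking enzyme needs CCA, CCG or CCT, and the 12 windows held from 16 to 38 such sites on both strands, against a median of 32 over all windows. CFLAR start 2 held the fewest, 16, and the part of this number in the peak calls was not tested. TNFRSF10A, TNFRSF10B, TNFRSF10C, TNFRSF10D and CASP10 are described by the lower and upper ends of their spans.

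Most of the open chromatin around the pathway genes was shared by all groups. Of the 73 regions, 44 had a peak in every list (60.3%), against 51.4% of all regions and 54.5% of regions within 10 kb of any protein-coding gene. Both lists with belinostat, and no other, held 6 regions (8.22%, against 6.09% of all regions). The AsiDNA and vehicle lists alone held 4 (5.48%, against 5.04%). Another 12 regions were in 1 list only, namely 2 in the combination, 4 in belinostat, 5 in AsiDNA and 1 in vehicle (2.74%, 5.48%, 6.85% and 1.37%, against 4.39%, 6.72%, 6.78% and 4.74% of all regions). The remaining 7 were in 3 lists, with 3 missing from the combination, 2 from belinostat and 2 from vehicle (4.11%, 2.74% and 2.74%, against 2.25%, 2.63% and 3.66% of all regions). The pair of AsiDNA lists had 0 regions to itself and the pair of lists without AsiDNA also 0, where 1.23% and 0.89% of all regions had these patterns.

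Regions missing from a list tended to be weak where they were present. Each peak was ranked by the fold enrichment that the authors' peak caller gave it, as a percentile, the share of peaks of the same list at or below that value. Since the lists differ in length, percentiles are set side by side and show no change in openness. The regions not held by every list had median percentiles of 11.7 in the combination (12 regions), 21.3 in belinostat (15), 17.7 in AsiDNA (16) and 17.1 in vehicle (10). For the 44 regions held by every list the medians were 58.6, 59.9, 62.7 and 53.0 in the same order of lists. Over all regions held by every list they were 64.2, 65.0, 64.3 and 62.4. A weak peak is more easily missed in another list, so the split by presence itself favours this order. It is not a trait of these genes.

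At gene starts or ends (within 1000 bp) lay 21 regions, of which 15 were in every list (71.4%). Of regions at an end of any protein-coding gene, 76.6% were. The 21 include regions at table starts inside a gene, while the shares around all genes count ends alone. The places are therefore not defined alike, and these shares cannot be compared closely. Inside the genes lay 35, with 19 in every list (54.3%, against 50.5% inside any protein-coding gene). In the flanks lay 17, with 10 in every list (58.8%, against 50.9%). Of the 6 regions found with belinostat only, 0 lay at a start or end, 4 inside a gene and 2 in a flank. Around all protein-coding genes, 7.0% of the regions with this pattern lay at an end, 75.6% inside and 17.4% in a flank. The 4 regions found only without belinostat all lay inside genes, as did 79.6% around all protein-coding genes. A peak of every list lay at a table start, or at either end where the table has none, for 9 of the 10 genes, and for 63.5% of all protein-coding genes. The exception was TNFRSF10A, which had none in the combination list.

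The limit of 10 kb set which regions were counted. The outermost region inside it lay 4608 to 8380 bp from its gene's span and was in every list for 8 of the 10 genes. The nearest region outside the windows of all 10 genes lay 10084 to 69132 bp from a gene's span and was in every list for 3 of 10. CASP8 and CASP10 share the same such region, chr2:201298538-201298781. Of all regions, 51.4% were in every list, and whether the limit matters for this was not tested.

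The receptors for TRAIL lie in 1 cluster, in the order TNFRSF10B, TNFRSF10C, TNFRSF10D and TNFRSF10A. TNFRSF10A (chr8:23190452-23225102) encodes DR4, a receptor with a working death domain, and had only weak peaks at its upper end and none at its lower end. The region at its upper end, chr8:23224226-23224822, had no peak in the combination list and stood at percentile 1.71 in belinostat, 8.28 in AsiDNA and 14.8 in vehicle. Its −log10 q in the authors' deposited table was 1.96 in belinostat, 3.79 in AsiDNA and 4.81 in vehicle, where the lowest value in any list was 1.3. Inside the gene, chr8:23201942-23202384 was likewise missing from the combination alone and stood at 5.87, 21.8 and 8.55 in the other lists. Another weak region, chr8:23219839-23220318, was in both belinostat lists only, at percentile 8.60 in the combination and 6.84 in belinostat. Beside it, chr8:23218021-23219183 was in every list, at 34.0 in the combination, 30.3 in belinostat, 68.0 in AsiDNA and 49.6 in vehicle. The 2 belinostat lists thus ranked it below both others.

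TNFRSF10B (chr8:23020133-23069031) encodes DR5, the other TRAIL receptor with a death domain, and had the most constant map of the 4 cluster genes, with 8 of 9 regions in every list. A peak lay over its upper end in every list, at percentile 67.7 in the combination, 75.8 in belinostat, 47.3 in AsiDNA and 56.9 in vehicle. The belinostat lists ranked this peak above both others, while its width stayed between 555 and 582 bp. Inside the gene, 905 bp from its lower end, chr8:23021038-23021578 was in every list at 66.1, 66.7, 73.4 and 76.6, in the same order. There the belinostat lists ranked lower. Over the lower end itself lay chr8:23019196-23020421, which RHOBTB2 also overlaps, in every list. The strongest peak of that region stood at 32.9, 25.5, 47.6 and 27.7, so the combination ranked above vehicle there. The 1 region of TNFRSF10B that was not constant, chr8:23067704-23068121, lacked a peak in belinostat and stood at 5.27 in the combination, 34.0 in AsiDNA and 16.7 in vehicle.

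Within the body of TNFRSF10B, neighbouring regions were ordered in opposite ways. At chr8:23063361-23063799 the percentile was 56.0 in the combination and 70.3 in belinostat, against 38.7 in AsiDNA and 20.3 in vehicle. Its covered length was 431 bp in belinostat against 214 bp in vehicle, a ratio of 2.01, and 334 bp in the combination against 284 bp in AsiDNA. In the next region, chr8:23064521-23065103 the percentile was 20.3 in the combination and 3.61 in belinostat, against 42.7 in AsiDNA and 39.8 in vehicle. This peak covered 204 bp in belinostat against 558 bp in vehicle (ratio 0.366), but 579 bp in the combination against 432 bp in AsiDNA (ratio 1.34). Its width therefore did not follow belinostat in both pairs. A further region, chr8:23041865-23042497, ranked higher in the belinostat lists, at 44.4 and 52.4 against 21.8 in AsiDNA and 18.9 in vehicle.

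TNFRSF10C (chr8:23102921-23117445) encodes a decoy receptor anchored in the membrane by a lipid and lacking a death domain. A weak peak lay over its lower end in every list, at percentile 12.6 in the combination, 11.6 in belinostat, 24.0 in AsiDNA and 4.8 in vehicle. The strongest region, chr8:23114432-23114868 inside the gene, stood at 87.3, 90.4, 75.1 and 82.4 in the same order. Of its 7 regions 3 were in every list. A belinostat peak at chr8:23103433-23103858 (percentile 25.4) had no counterpart, and next to it the AsiDNA and vehicle lists alone held chr8:23104180-23104550, at 6.57 and 19.7. The lncRNA gene LOC254896 overlaps the first of these and the lower end of TNFRSF10C. Past the upper end lay chr8:23120161-23120390, in both belinostat lists only (7.76 in the combination, 23 in belinostat), and chr8:23121787-23122021, in AsiDNA only (1.80).

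TNFRSF10D (chr8:23135588-23164027) encodes the decoy receptor with a truncated death domain. Its upper end had a broad peak of 1027 to 1224 bp in every list, at percentile 44.7 in the combination, 39.8 in belinostat, 56.8 in AsiDNA and 33.7 in vehicle. The highest-ranked region of the gene was chr8:23148363-23148809, inside it, at 89.8, 89.7, 84.5 and 78.8 in that order. Only the flanking region chr8:23129578-23129974 was not constant: it was missing in vehicle and stood at 23.8 in the combination, 35.3 in belinostat and 11.0 in AsiDNA.

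**Figure D1:**
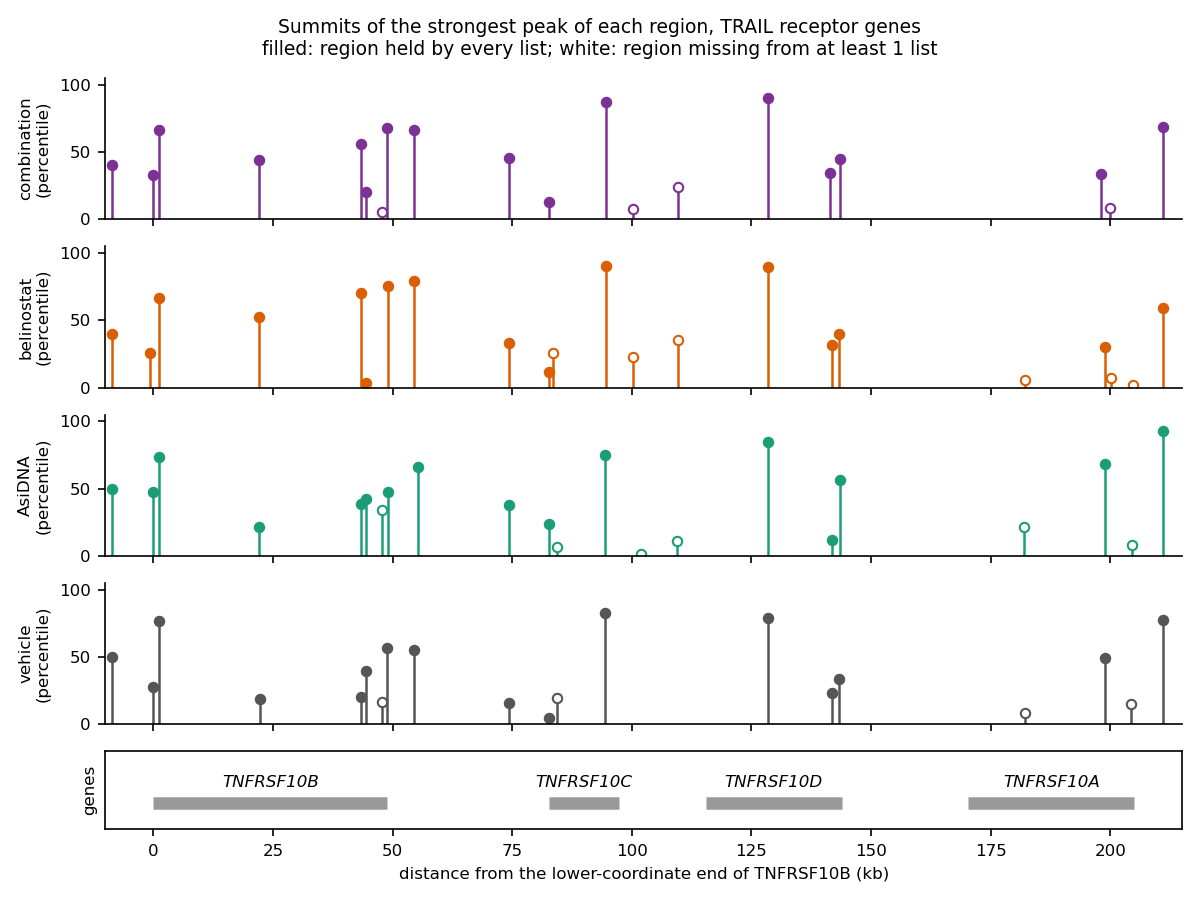
Percentile of the strongest peak of each region, by the distance of its summit from the lower-coordinate end of TNFRSF10B in kb, with 1 row per list and the spans of the 4 TRAIL receptor genes below. Filled points are regions held by every list and white points are regions missing from at least 1 list; the white points, such as TNFRSF10A's upper end at 8.28 in AsiDNA and 14.8 in vehicle, are mostly low.

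FAS (chr10:88964050-89017059) encodes the receptor for Fas ligand. Its 3 table starts lie under 1 broad peak, chr10:88990031-88992008, which was in every list at percentile 45.7 in the combination, 29.8 in belinostat, 52.7 in AsiDNA and 29.5 in vehicle. Both lists with AsiDNA ranked this peak above both others, and its covered length was 1447, 1884, 1536 and 1834 bp in that order. The genes ACTA2 and FAS-AS1 share this place, so the peak cannot be given to FAS alone. A further 4 regions inside FAS differed between lists. The AsiDNA and vehicle lists alone held chr10:88974798-88975165 (14 and 20.9) and chr10:89000771-89001655 (33.4 and 6.83). AsiDNA alone held chr10:88993273-88993487 (18.4), and belinostat alone lacked chr10:88993924-88994271, which stood at 26.2 in the combination, 17.8 in AsiDNA and 37.2 in vehicle. FAS was the only one of the 10 genes with 2 regions found just without belinostat, and it had none found just with it. However, ACTA2 also overlaps 1 of these 2, chr10:88974798-88975165, which cannot be given to FAS alone. TNFRSF10C and CASP10 each had 1 region found just without belinostat.

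In the lower flank of FAS, within ACTA2, lay the 1 region, of the 44 held by every list, that was over 1.5-fold narrower with belinostat in both pairs, where 2.25% of all regions held by every list were. At chr10:88960726-88961283 the covered length was 278 bp in the combination against 558 bp in AsiDNA (ratio 0.498), and 223 bp in belinostat against 491 bp in vehicle (ratio 0.454).

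TNFRSF1A (chr12:6328771-6342076) encodes the main receptor for TNF, and all 5 of its regions were in every list. At its start, chr12:6341687-6342284, the peak covered 278 bp in the combination, 334 bp in belinostat, 410 bp in AsiDNA and 588 bp in vehicle. It was narrower with belinostat in both pairs, with ratios of 0.678 for the combination over AsiDNA and 0.568 for belinostat over vehicle. The percentile was 23.2 in the combination and 22.1 in belinostat, against 50.0 in AsiDNA and 39.8 in vehicle, so both belinostat lists were lower. The other 4 regions did not share this order: chr12:6345233-6345780, beyond the start, stood at 86.1 and 85.1 against 71.2 and 74.0.

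FADD (chr11:70203296-70207390), the adaptor, had the highest-ranked start peak of the receptor and adaptor genes. It stood at percentile 84.6 in the combination, 76.6 in belinostat, 83.3 in AsiDNA and 80.4 in vehicle, with covered lengths of 997, 1017, 1268 and 967 bp in that order. Only 2 of its 6 regions were in every list, the start and the flank chr11:70209828-70210825. That flank stood at 58.5 in the combination and 77.2 in belinostat, against 93.6 in AsiDNA and 92.1 in vehicle. The rest were weak: chr11:70200419-70200740 in both belinostat lists (5.57 in the combination, 21.3 in belinostat), chr11:70201935-70202151 in the combination (2.97), chr11:70204434-70204649 in belinostat (1.39) and chr11:70196135-70196352 in AsiDNA (17.7).

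CASP8 (chr2:201233463-201287711) encodes caspase-8, the initiator that the receptors activate, and its 3 starts differed. Start 2, whose sequence holds TATAAA, lay under a peak of 1042 to 1247 bp in every list, at percentile 83.8 in the combination, 83.7 in belinostat, 81.9 in AsiDNA and 78.1 in vehicle. Over start 1 itself there was no peak. The nearest, chr2:201232136-201232626, lay 837 to 921 bp before it and stood at 82.1 in the combination and 83.7 in belinostat, against 60.4 in AsiDNA and 46.4 in vehicle. It also lies in the flank of CASP10. Start 3 had a peak in the AsiDNA list alone, chr2:201260335-201260554, at 18.6.

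Inside CASP8, chr2:201280564-201280935 was in both belinostat lists only, at percentile 41.6 in the combination and 44.3 in belinostat, with a −log10 q of 10.6 in the authors' deposited table for both. Among the 6 regions found with belinostat only, it alone was above percentile 40 in both lists. The region chr2:201264522-201265171 was in every list at 62.2 in the combination, 41.6 in belinostat, 34.7 in AsiDNA and 25.1 in vehicle. It was also longer with belinostat in both pairs, at 628 bp in the combination against 473 bp in AsiDNA and 608 bp in belinostat against 429 bp in vehicle. Single weak peaks lay at chr2:201246567-201246777 in belinostat (9.25) and at chr2:201251773-201252023 in vehicle (8.39).

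CASP10 (chr2:201183141-201229406) encodes the related initiator caspase-10. A peak lay over its lower end in every list, at percentile 57.4 in the combination and 60.7 in belinostat, against 83.3 in AsiDNA and 75.8 in vehicle. Further in, chr2:201218781-201219250 went the other way, at 68.3 in the combination and 71.7 in belinostat, against 30.9 in AsiDNA and 32.6 in vehicle. The mean of the belinostat lists was 38.3 percentile points above the mean of the others, the most among the 44 regions held by every list. In the middle of the gene 2 regions had opposite patterns: chr2:201203962-201204352 was in both belinostat lists only (14.7 in the combination, 54.6 in belinostat) and chr2:201207930-201208367 only in AsiDNA (42.8) and vehicle (36.1). One peak, chr2:201197631-201197850, was in AsiDNA alone (9.68). Between CFLAR and CASP10, chr2:201180043-201180261 was in belinostat alone (17.1).

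CFLAR (chr2:201116164-201176687) encodes c-FLIP, and with 15 regions had the most of the 10 genes. Start 1 lay under a peak in every list, at percentile 37.4 in the combination, 39.4 in belinostat, 31.9 in AsiDNA and 11.3 in vehicle. This peak was longer with belinostat, at 619 bp in the combination against 384 bp in AsiDNA (ratio 1.61) and 665 bp in belinostat against 487 bp in vehicle (ratio 1.37). No list had a peak over starts 2, 3 or 4. The nearest peaks to start 4, the one with 22 CG pairs, were 8853 to 8858 bp away. Over all starts with 20 or more CG pairs, 21.2% had no peak over them in any list.

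Around start 2 of CFLAR the map differed between the combination and the rest. Peaks at chr2:201129099-201129469 were missing from the combination and stood at 8.03 in belinostat, 14.5 in AsiDNA and 17.4 in vehicle, while chr2:201129656-201129865 was in the combination alone (5.59). Before the start lay chr2:201127513-201128001, in every list at 55.3 in the combination and 57.4 in belinostat, against 70.9 in AsiDNA and 76.3 in vehicle. Deeper in the gene, chr2:201164161-201164603 was missing from vehicle. It stood at 74.8 in the combination, 76.0 in belinostat and 33.4 in AsiDNA, the highest percentiles in the belinostat lists of any region that a list lacked. A weaker region, chr2:201124779-201125096, was in both belinostat lists only, at 26.2 in the combination and 29.6 in belinostat. The ends of the CFLAR span had peaks in every list. Those at the lower end, chr2:201115971-201117804, which the lncRNA gene LOC105373836 also overlaps, stood at 36.8, 36.6, 15.5 and 21.8 in the order combination, belinostat, AsiDNA and vehicle. Those at the upper end, chr2:201177293-201177780, stood at 83.4, 72.2, 84.6 and 82.3.

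**Figure D2:**
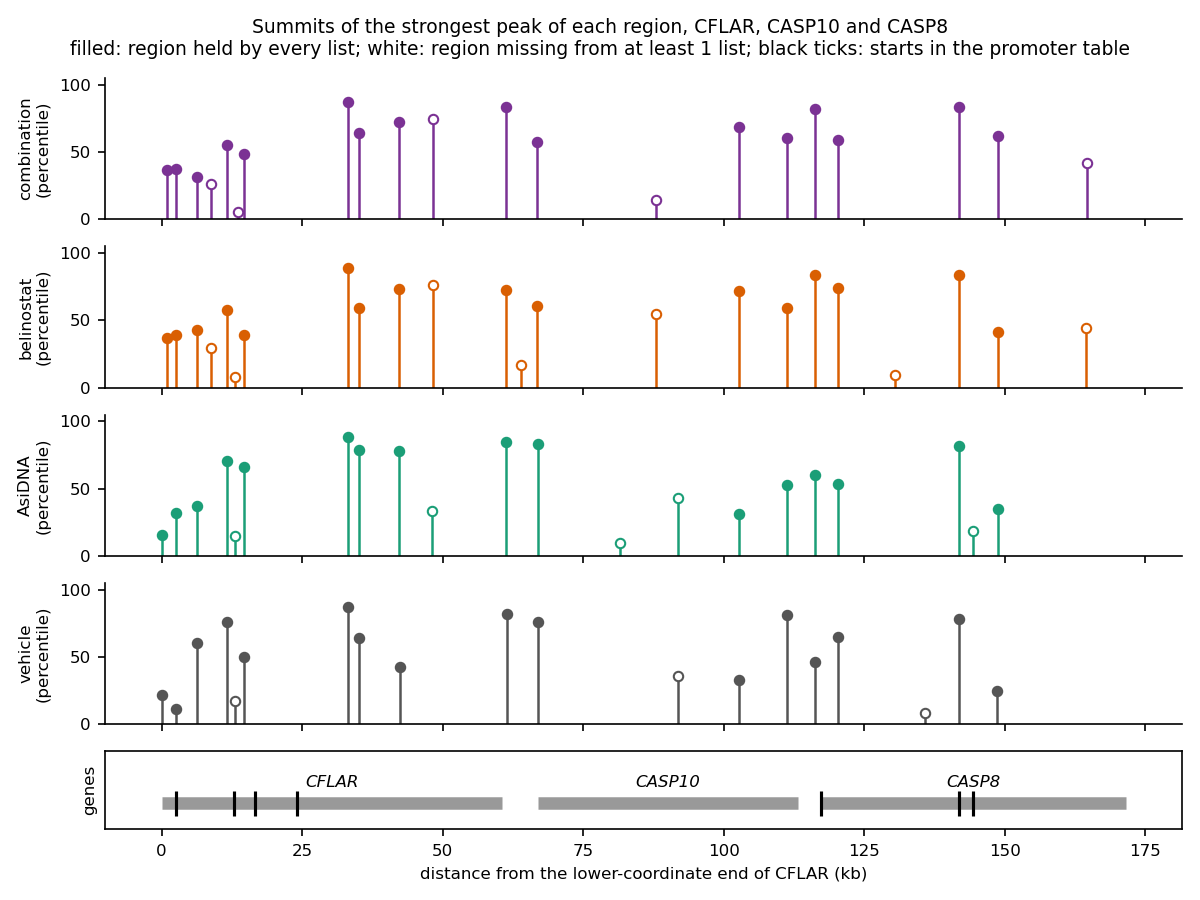
Percentile of the strongest peak of each region, by the distance of its summit from the lower-coordinate end of CFLAR in kb, with 1 row per list, the gene spans below and table starts as black ticks. Filled points are regions held by every list and white points are regions missing from at least 1 list; the white point inside CFLAR at 74.8 in the combination and 76.0 in belinostat stands at 33.4 in AsiDNA and is not there in vehicle.

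**Figure D3:**
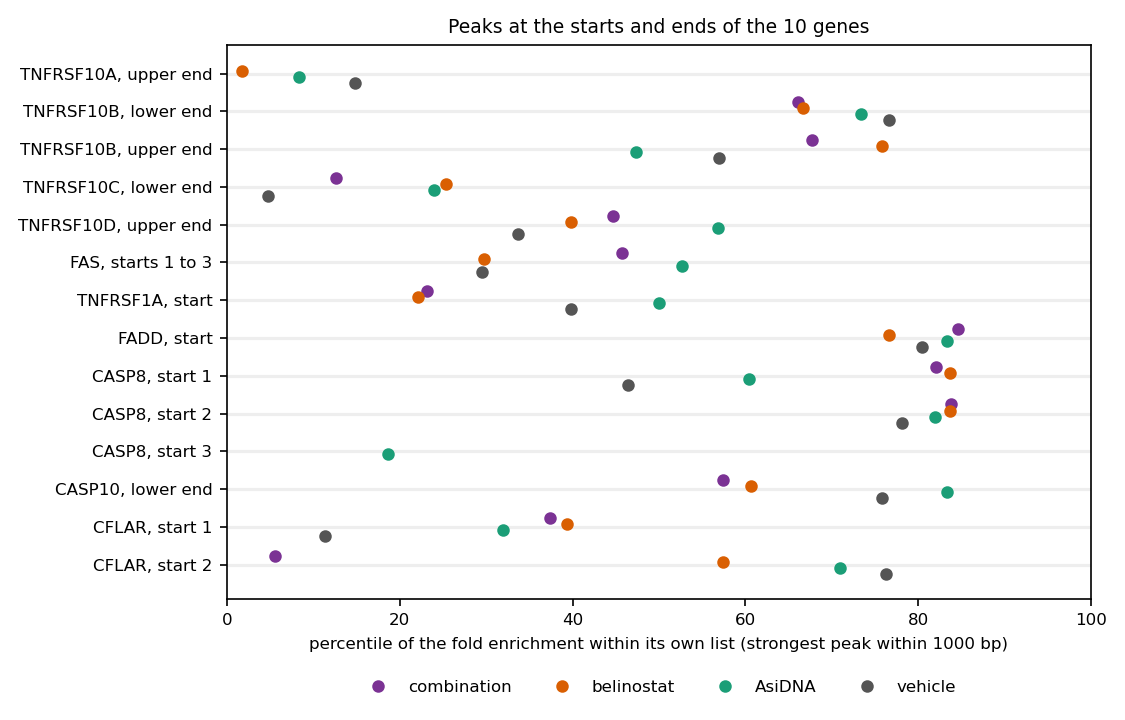
Percentile of the strongest peak within 1000 bp of each table start, or of each gene end for the genes without a table start, with 1 point per list; starts and ends with no peak in any list are left out. The belinostat-treated groups lie above the others at CASP8 start 1, CASP8 start 2, CFLAR start 1 and TNFRSF10B's upper end. They lie below the others at TNFRSF1A's start, CASP10's lower end, TNFRSF10B's lower end and CFLAR start 2. The points at CASP8 start 1 are from a peak 837 to 921 bp away. At CFLAR start 2 the combination is drawn at 5.59, because its stronger neighbouring peak (55.3) ends just past the 1000 bp limit. At TNFRSF10C's lower end belinostat is drawn at 25.4, from a neighbouring peak, where the peak over the end itself stood at 11.6. At TNFRSF10B's lower end all points are from the region 905 bp inside the gene, not from the region over the end.

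Set against vehicle, belinostat gained 12 of the 66 regions in either list and lost 7, which is 18.2% and 10.6%, where the shares over all regions were 20.4% and 15%. AsiDNA gained 7 of 61 and lost 1, or 11.5% and 1.64%, where the shares over all regions were 15.8% and 10.2%. The combination gained 10 of 64 and lost 8, or 15.6% and 12.5%, beside 18.1% and 15.2%. These 3 comparisons share the vehicle list. Compared with AsiDNA, the combination gained 8 of 68 regions and lost 12, or 11.8% and 17.6%, beside 15.2% and 17.6% over all regions. Compared with belinostat it gained 4 of 63 and lost 7, or 6.35% and 11.1%, beside 10.8% and 13.5%.

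**Figure D4:**
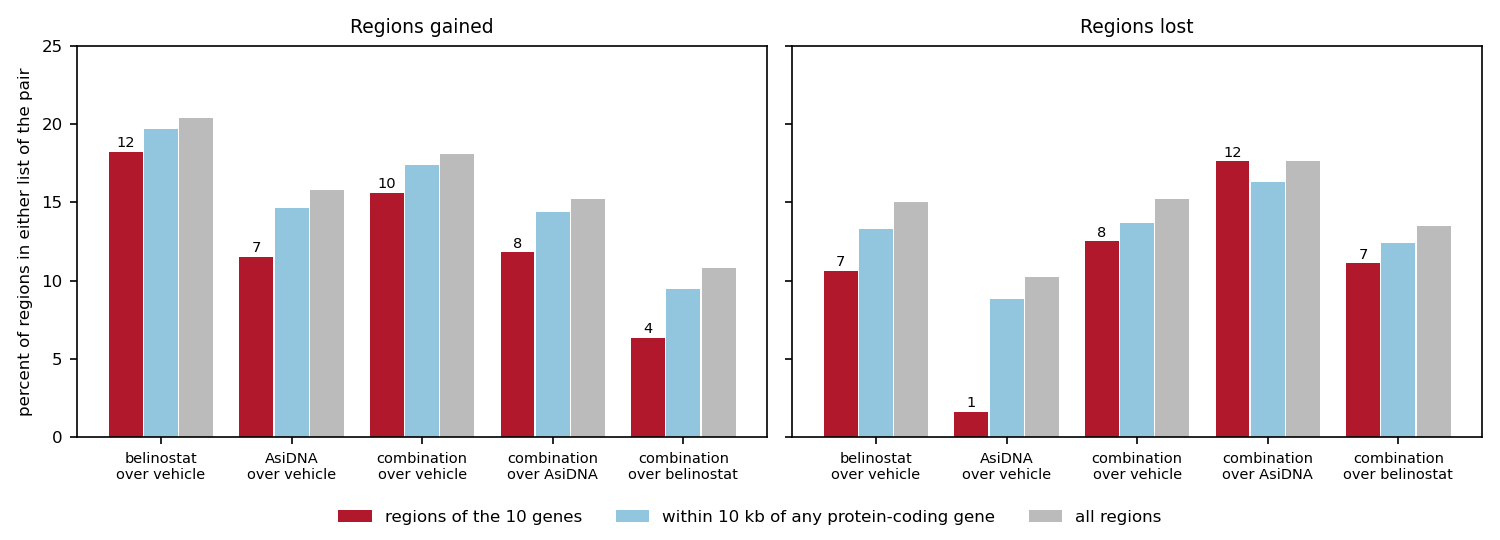
Percent of the regions in either list of a pair that the first list gained (left) or lost (right), for the regions of the 10 genes, for regions within 10 kb of any protein-coding gene and for all regions; digits above the bars are the number of regions of the 10 genes. For AsiDNA over vehicle 1 region was lost, 1.64% against 10.2% of all regions.

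Covered lengths of the 44 regions held by every list were compared next. Belinostat over vehicle had a median ratio of 1.02, and the combination over AsiDNA 0.999. Over all regions held by every list these medians were 1.01 and 0.959. Over 1.5-fold wider in belinostat than in vehicle was 1 region, in TNFRSF10B, where 9.42% of all regions held by every list passed this limit. Over 1.5-fold narrower were 4, beside 6.75% of all: the flank of FAS, the start of TNFRSF1A, and a pair of regions inside TNFRSF10B. In the combination against AsiDNA, 1 region was wider, at CFLAR start 1, beside 5.24% of all, and 2 were narrower, beside 8.67% of all. These were the FAS flank and the lower end of TNFRSF10C, at 298 bp in the combination against 547 bp in AsiDNA.

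**Figure D5:**
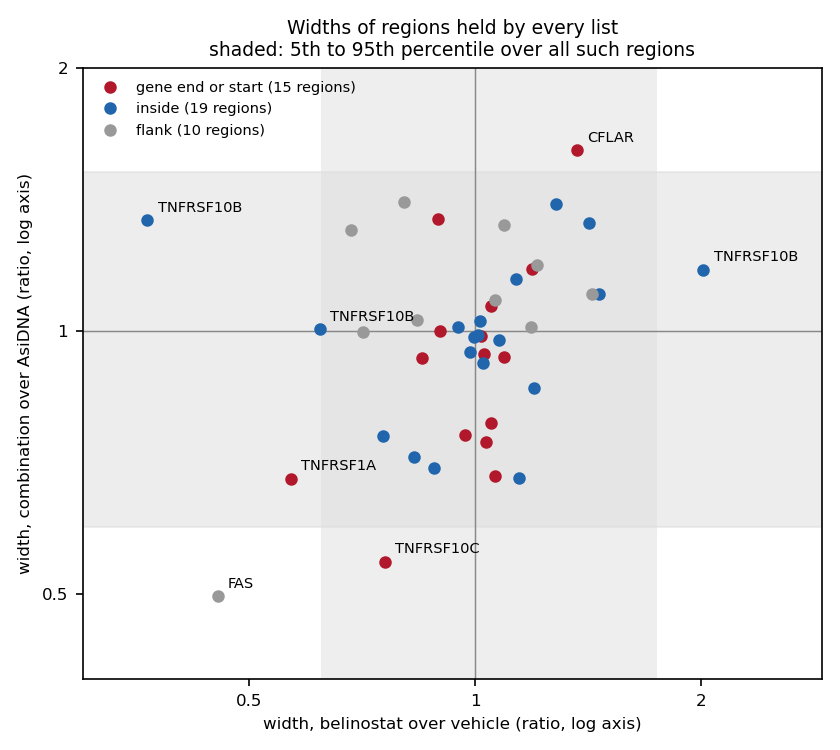
Ratio of covered lengths for belinostat over vehicle (horizontal) and for the combination over AsiDNA (vertical), both on log axes, for the 44 regions held by every list, coloured by place; shading spans the 5th to the 95th percentile over all such regions. The FAS flank at 0.454 and 0.498 is the only point narrower by over 1.5-fold in both, beside 2.25% of all such regions, and a TNFRSF10B region at 0.366 and 1.34 lies on opposite sides of 1.

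The percentile was higher in both belinostat lists than in both other lists for 18 of the 44 regions, beside 35.1% of all regions held by every list. It was lower for 11, beside 26.9% of all. The median difference between the means of the belinostat lists and of the others was 0.522 percentile points for the 44 regions and 1.48 for all regions. Summits of the strongest peaks lay within 100 bp of one another in all lists for 35 of the 44 regions (79.5%, against 74.9% of all). The widest spread was 875 bp, at the lower end of CFLAR.

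Another 25 genes of the pathway were read in the same way. They comprise 3 ligands, 5 other receptors and decoys, 5 adaptors and kinases, 8 regulators and 4 downstream genes. A peak at a start or end was in every list for 20 of them, including all 8 regulators, and for 63.5% of all protein-coding genes. There was none in any list for 4, as for 29.3% of all protein-coding genes: FASLG, which encodes Fas ligand, TNFRSF25 and TNFRSF6B, which encode a death receptor and a soluble decoy, and RIPK3, a kinase of necroptosis. TNF, which encodes the ligand of TNFRSF1A, was the only one of the 25 whose start differed between lists, with a peak in belinostat alone at percentile 41.5. Of the 117 regions counted over these genes, 73 were in every list (62.4%), 6 in both belinostat lists only (5.13%), 2 only in the lists without belinostat (1.71%), and 36 had other patterns. Over all regions the first 3 shares were 51.4%, 6.09% and 5.04%. Those shares count each region once, whereas the 117 are summed gene by gene. A region near more than 1 of the 25 genes is thus counted again. Genes were not ranked by how alike their patterns are, because 4 lists give too few patterns to tell them apart.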

How the data were processed

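Groups were taken from the treatment field of the labels. Per the labels' protocols, formaldehyde-fixed nuclei were nicked with Nt.CviPII and labelled with biotin. The tools named in the submitters' processing notes are MACS2, Bowtie2, Picard, SAMtools, deepTools and Trim Galore (version 0.5.0), and the build is hg38. The sources used here do not state their roles, their options, an input, a blacklist, or how 4 libraries became 1 list. The deposited peaks carry a fold enrichment, which is a ratio to local background, and their p-value and q-value were deposited as −log10. The deposited display score and the summit offset were taken as given. None is scaled between lists, and no file used here gives depth.

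Peaks on chromosomes 1 to 22 and X were merged across lists where they overlapped by at least 1 bp. A region was gained when only the first list of a pair held it, and lost in the reverse case. Width ratios used covered lengths, with a limit of 1.5-fold. The gene table (GRCh38.p14) has 1 start and end per gene and no exons, so exon and intron are not given. The planned window at gene ends used the promoter table's starts where it has them. Named were all 10 genes, every region whose presence differed between lists, every start region held by all lists, and other pathway genes whose end pattern differed. Genes, lists and settings were chosen with earlier results of these data known. The functions were checked on simulated data. The versions were matplotlib 3.10.9, pandas 2.3.3, numpy 2.4.6 and Python 3.11.15. A few of the listed genes are not reported here by name.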

Additional observations from a re-analysis of the deposited data

Results flagged for a closer look

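The widths of 2 TNFRSF10B regions were flagged because a ratio past 1.5-fold in one pair of lists that differ by belinostat lay opposite 1 from the ratio in the other pair. Ratios that disagree were common. Both ratios were above 1 in 14 of the 44 regions held by every list and below 1 in 11. Over all regions held by every list these shares were 26.9% and 34.0%. With 1 list per group this difference was not tested. At chr8:23064521-23065103 the ratio was 1.34 for the combination over AsiDNA and 0.366 for belinostat over vehicle. At chr8:23041865-23042497 the ratio was 1.005 for the combination over AsiDNA (370 against 368 bp), close to no change, and 0.621 for belinostat over vehicle.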

How the results depend on the processing

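Over 122 alternative values, 97 were equal to the reported value or within 1.5 times of it, and 21 counts moved further. The other 4, median percentiles, moved by under 1.5 times. The number of regions in every list (44 as reported) and the number of genes with a start or end peak in every list (9) stayed within 1.5 times. The first was 32 for gene spans without extension and 57 with 20 kb. The second was 8 with only peaks at −log10 q of 5 or more. Settings for gained and lost regions, other pathway genes, summits, and widths under 50% overlap or equal list length were added after seeing the data. With only peaks at −log10 q of 5 or more, 2 regions were found only without belinostat, the combination lost 4 against vehicle, and 1 region was narrower in the combination than in AsiDNA. With presence at that limit and absence as no peak at all, 3 regions were in both belinostat lists only and 2 only in the lists without it. AsiDNA then gained 4 and lost 0 against vehicle, the combination lost 4 against vehicle, gained 5 against AsiDNA and lost 4 against belinostat. A 50% overlap gave 2 regions lost in AsiDNA against vehicle. Lists of equal length (130318 peaks) gave 4 lost in the combination against belinostat. Gene spans without extension gave gains of 4 for AsiDNA and 6 for the combination over vehicle, and 5 for the combination over AsiDNA. With 20 kb, AsiDNA gained 11 and lost 5 against vehicle, and the combination gained 13 over AsiDNA. With the strongest peak's width, 2 regions were wider in belinostat than in vehicle, and 2 were wider and 4 narrower in the combination than in AsiDNA. For the median percentile, each gene gave its highest value at a table start, or at either end where it has none. Ranking by −log10 p put it at 56.5 in the combination, 56.8 in belinostat, 75.6 in AsiDNA and 67.5 in vehicle. By fold enrichment it was 45.7, 48.6, 63.9 and 57.8. TNFRSF10A had no such peak in the combination and was left out there. CFLAR was taken at start 1 in the combination and near start 2 in the other lists. The medians are therefore not of the same peaks in each list. The stricter limits leave out weak peaks or regions by definition, and the cause of the moves was not tested. No paired analysis was possible because each group has 1 list and no value per library, and no replicate could be left out for the same reason. Depth is unknown, so a missing weak peak may be below detection in that list.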
